A study of Homo sapiens with 71 samples.

Results

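The complement and coagulation genes of the liver were followed in HepG2 cells exposed to surface water. The 43 genes listed were chosen by symbol, and those with a mean of at least 1 CPM (counts per 1e+06 counts of the library in the part of the table held, which ends before RAI14 in alphabetical order) over the control libraries were kept, which left 31 genes. All 31 were among the 6943 features tested, of 31012 complete entries in the table and 12459 with counts. HepG2 is an established human hepatoma line that secretes many plasma proteins. Each exposed group was 1 of 16 sites, named here by the codes BRWI, CRMI, CROH, FRWI, GRMI, GRNY, IHIN, JRMI, LRMN, MAWI, MIWI, MROH, ORNY, RRMI, SRMI and VROH. Dishes of a site received medium of which 75% was filtered water of that site for 48 hours, with 4 libraries per site and 3 at MIWI. The control group, CTRL, received the same medium made with purified water and held 8 libraries. Site waters were filtered at 0.7 µm and the purified water at 0.1 µm, and this difference cannot be told apart from site minus controls. All groups shared the cell line, the serum-containing medium and 72 hours of preculture. All dishes were filled from the same pooled cells of 1 line, so p values measure the spread between libraries of that pool. The protocol lists 16 control dishes and does not say how the 8 control libraries relate to them. RNA was read with TempO-Seq, which counts reads of paired probes placed on chosen transcripts. A change was called where edgeR's quasi-likelihood test gave a Benjamini-Hochberg adjusted p under 0.05 over all features of the comparison. Levels are CPM of the scaled library total with the SD over libraries, and changes are log2 values with their SE, site minus controls. Probes differ between genes, so levels are compared within a gene. The total count in the part held was 2912835 to 9893173 per site library, apart from VROH 2 with 8840 counts, and 8183185 to 14519869 per control library.

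Complement is a cascade of plasma proteins. C1, or mannose-binding lectin with its MASP proteases, starts it by cleaving C4 and C2, while factor B serves the alternative pathway. The convertases so formed cleave C3, and the terminal components C5 to C9 then build a pore in the target membrane. Coagulation is a parallel cascade of proteases, started by tissue factor or by contact with a surface, that ends when thrombin turns fibrinogen into fibrin and factor XIII cross-links it. Protein C, protein S and plasmin limit or dissolve the clot. Hepatocytes make most of these proteins, and C3, factor B, C4b-binding protein and fibrinogen belong to the acute phase response, in which IL-6 and related signals raise their synthesis.

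Promoters were searched in RefSeq sequences (GRCh38.p14), which matched 28 of the 31 genes with 38 promoters of 300 bases, from 250 before the start to 50 after it. The bases before the start are printed for F13B and CFB and for FGB and FGG, because the members of each pair moved together over the sites. Capitals mark matches, on either strand, to the HNF1 motif GTTAAT, to the IL-6 response element spelled CTGGGAA, to the core of HNF4 sites spelled CAAAGT, or to the core of C/EBP sites, which is TTGCNNCA. No 2 matches overlapped in the sequences shown. F13B lies at chr1:197067261-197067510 on the minus strand, CFB at chr6:31945845-31946094 on the plus strand, FGB at chr4:154562730-154562979 on the plus strand and FGG at chr4:154612657-154612906 on the minus strand. FGB has a further RefSeq start, which is not printed.
F13B: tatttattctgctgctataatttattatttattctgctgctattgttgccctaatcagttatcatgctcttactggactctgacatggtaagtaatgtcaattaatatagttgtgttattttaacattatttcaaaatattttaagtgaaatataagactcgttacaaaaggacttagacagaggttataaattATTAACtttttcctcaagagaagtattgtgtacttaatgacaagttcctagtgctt
CFB: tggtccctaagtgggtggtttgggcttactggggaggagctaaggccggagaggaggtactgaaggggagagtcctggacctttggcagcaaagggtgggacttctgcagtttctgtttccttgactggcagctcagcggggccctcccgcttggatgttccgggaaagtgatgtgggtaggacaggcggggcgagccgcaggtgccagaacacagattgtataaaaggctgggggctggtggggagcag
FGB: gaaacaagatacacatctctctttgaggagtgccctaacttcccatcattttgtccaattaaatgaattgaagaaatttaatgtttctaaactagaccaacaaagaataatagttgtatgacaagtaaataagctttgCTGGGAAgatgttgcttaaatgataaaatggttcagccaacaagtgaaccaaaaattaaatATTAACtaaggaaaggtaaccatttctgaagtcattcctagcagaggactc
FGG: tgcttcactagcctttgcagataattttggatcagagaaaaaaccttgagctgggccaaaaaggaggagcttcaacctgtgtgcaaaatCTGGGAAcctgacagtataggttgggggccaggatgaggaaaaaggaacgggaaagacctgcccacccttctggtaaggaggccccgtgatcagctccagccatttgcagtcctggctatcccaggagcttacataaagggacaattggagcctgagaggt
F13B held the HNF1 motif, first base at -56 from the start. FGB held the HNF1 motif at -51 and the IL-6 response element at -112, FGG held the IL-6 response element at -161, and CFB held none of the 4 motifs in the whole window. The HNF1 motif occurred in 12 of the 38 promoters, belonging to 10 of the 28 genes, a share of 31.6%, against 6.88% of all 35116 promoters. The IL-6 response element occurred in 8 of the 38 promoters, belonging to 5 of the 28 genes, a share of 21.1%, against 10.8% of all. The HNF4 core occurred in 10.5%, against 11.9% of all, and the C/EBP core in 13.2%, against 10.8% of all. Promoters of the same gene can overlap, as in FGB and C4BPB, so the same stretch can count more than once. These matches describe the letters alone, and no binding was measured.

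The cells carried the markers of hepatocytes. The 7 markers (AFP, AHSG, ALB, APOA1, APOB, APOC3 and HNF4A) summed to 131700 to 235700 CPM in site libraries and to 149400 to 187600 CPM in controls, and none was called at any site. Immune markers summed to 75.9 to 195 CPM at the sites and 111 to 151 CPM in controls, with PTPRC, the leukocyte common antigen, at 0 in every library. Endothelial markers summed to at most 16.0 CPM at the sites and 12.5 CPM in controls, with KDR at 0 throughout. Platelet markers summed to at most 11.4 CPM at the sites and 6.86 CPM in controls, with PPBP at 0 throughout. Among the markers of these other cells, 1 immune marker was called higher at 1 site and 1 endothelial marker lower at 1 site. Between the sites 1 of 7 hepatocyte, 2 of 4 immune and 1 of 3 endothelial markers tested differed, where 37.8% of all features did. Fibroblast and stellate markers summed to 15.7 to 68.4 CPM at the sites and 37.3 to 64.2 CPM in controls. The part of these markers in the results was not tested. VROH 2 was left out of the fit for its depth. CRMI 1 stood apart over the 31 genes. In it, C2, C5, MASP1, MBL2 and PROS1 were at least 3 log2 units below the rest of their site and 10 genes at least 1 unit below. The SD of its log2 differences from the rest of its site was 1.88, and the CRMI means given below include it. SRMI 3, which was left out with it in an alternative chosen with earlier results known, had 6 genes at least 1 unit below and an SD of 0.750, close to 0.746 in JRMI 2 and 0.725 in GRNY 4. In bulk RNA, fewer cells of a kind and less RNA per cell cannot be told apart.

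As a mean over the sites none of these genes passed the test, and very few of all features did. The calls lay in the comparisons of single waters and between waters, a pattern the 31 genes shared with all features. For the unweighted mean of the 16 sites minus controls, edgeR called 0 of the 31 genes, where 0.101% of all features were called. At an unadjusted p under 0.05 there were 3 (C7, C8B and FGG), where 2.94% of all features were under it, and DESeq2 called 0. The median log2 change was -0.05 for the 31 genes and -0.01 for all features, with 7 genes above and 24 below. C7 had the largest change, 0.65 ± 0.20 on the log2 scale (SE), with an adjusted p of 0.481. Between the sites the F test called 14 of the 31 genes (45.2%), where 37.8% of all features were called. The median F value was 2.03 for the 31 genes and 1.71 for all features.

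**Figure D1:**
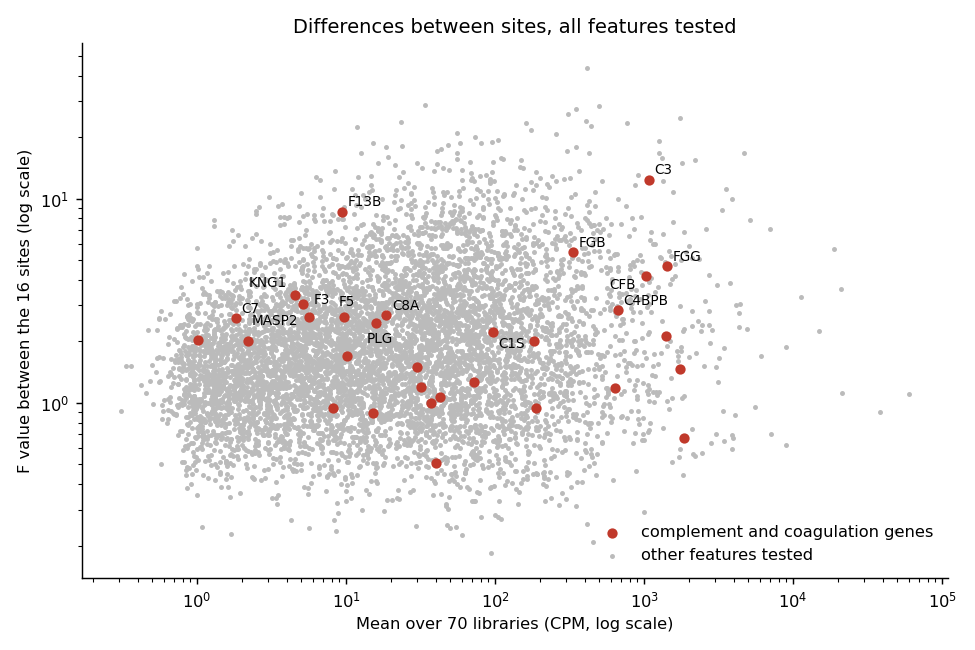
F value of the test between the 16 sites (vertical, log scale) against the mean CPM over 70 libraries (horizontal, log scale) for each feature tested; red points are the complement and coagulation genes and grey points the other features, with the 14 genes called named. C3 (F = 12.4) and F13B (8.62) lie highest among the red points, and most red points lie within the grey cloud.

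Of the 496 pairs of a gene and a site, 14 were called (2.82%), against 1.93% of the pairs of all features. They concerned 7 genes at 7 sites, with 11 changes lower than controls and 3 higher, all 3 of C7. Over all features 1097 were lower and 1045 higher. The split of the 31 genes moved with the setting. It was 3 higher and 2 lower with all 71 libraries, and 8 and 13 with DESeq2. With each site and the controls alone it was 8 and 20, and without VROH 2, CRMI 1 and SRMI 3 it was 10 and 17. MAWI had 3 genes called where 1.56% of all features were, RRMI 3 where 1.74% were, ORNY 2 where 1.58% were and SRMI 2 where 3.17% were. CROH had 2 genes called where 4.16% of all features were, and CRMI and LRMN 1 each where 7.32% and 8.64% were. At the other sites edgeR called 0 of the 31 genes. There the share of all features called was 0.475% at BRWI, 0.331% at FRWI, 0.115% at GRMI, 0.533% at GRNY, 0.101% at IHIN, 1.09% at JRMI, 0.0144% at MIWI, 0.0144% at MROH and 0% at VROH. Between 1 and 6 of the 31 genes had an unadjusted p under 0.05 at each of these sites. Of all features 4.35% (MIWI) to 17.9% (GRNY) did so there. DESeq2 called 1 gene (F13B at GRNY) and 0 at the others, where it called 88 of all features at GRNY and 3 (MIWI) to 113 (JRMI) at the others. Changes were small as a rule: 92.3% of the 496 changes, against 91.8% of those of all features, lay within 1.5-fold of the controls. All site comparisons used the same 8 controls. Without VROH 2, CRMI 1 and SRMI 3, 27 pairs were called (5.44%, against 4.09% of all features' pairs), 12 of them among the 14. In that fit 20 genes differed between sites (64.5%, against 49.8% of all features), all 14 among them, so calls rose over all features too. The others were FGA, C4BPA, C5, C6, PROC and PROZ. Leaving out CRMI 1 beside VROH 2 gave 20 pairs and 20 genes, where 2.85% of all pairs and 45.8% of all features were called. Leaving out SRMI 3 beside VROH 2 gave 16 pairs and 14 genes, where these shares were 2.58% and 41.6%.

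**Figure D2:**
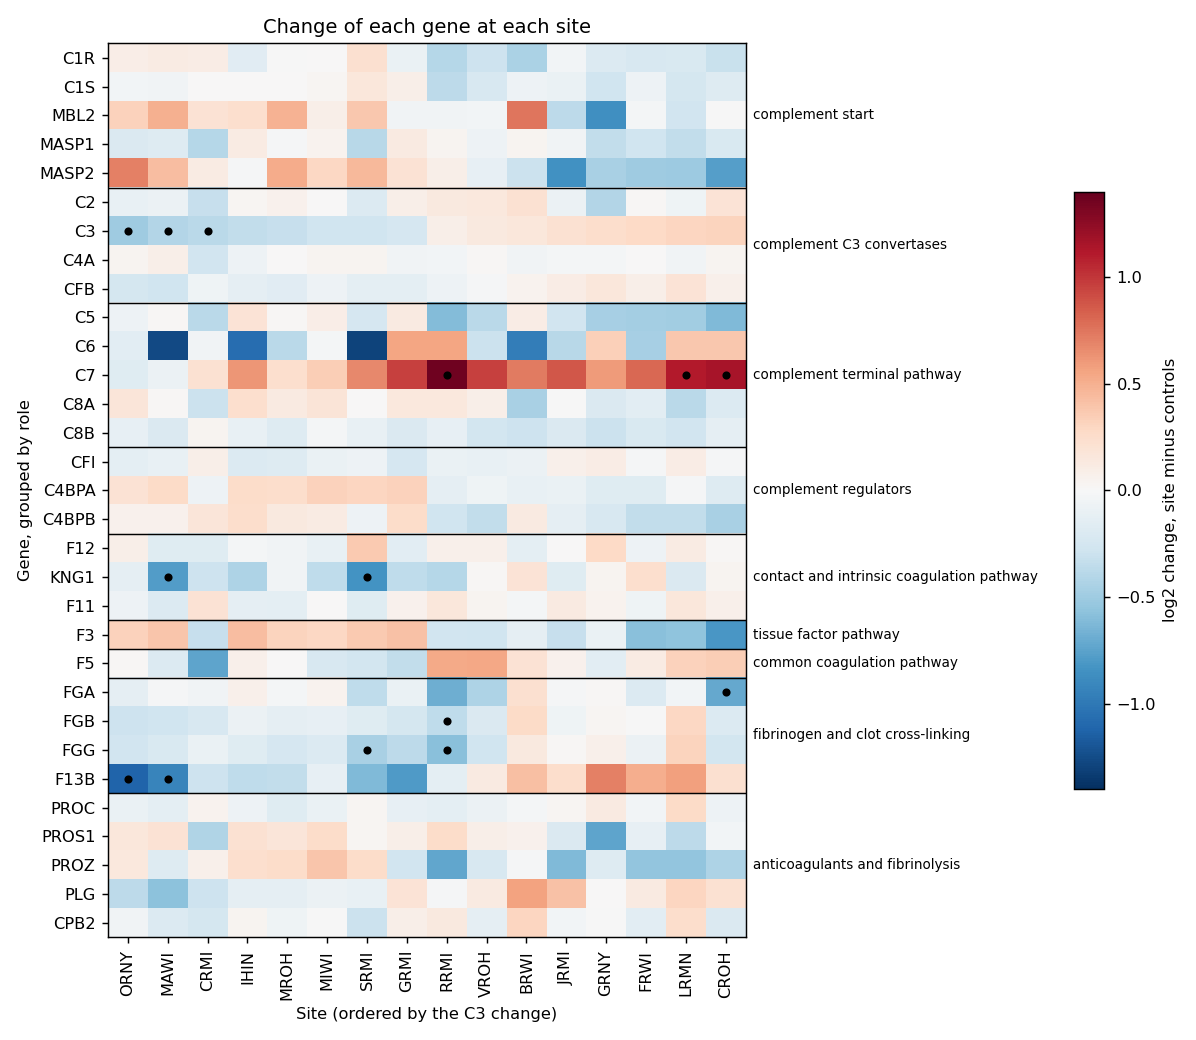
log2 change of each of the 31 genes (rows, grouped by role) at each of the 16 sites (columns, ordered by the C3 change), site minus controls; blue is lower and red higher than controls, and dots mark the 14 changes called. C3 and, for most sites, F13B turn from blue to red in this order, C7 is red at 14 of 16 sites, and most other fields are pale.

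C3, the component on which all complement pathways converge (chr19:6677704-6730562, minus strand, GRCh38), differed most between the sites among these genes (F = 12.4, adjusted p = 6.37e-11, rank 75 of the 6943 features). At ORNY C3 had 734, 745, 677 and 953 CPM, against a lowest of 1022, a median of 1056 and a highest of 1266 CPM in the 8 controls. At MAWI it had 846, 812, 800.4 and 841 CPM, and at CRMI 815, 937, 793 and 837 CPM. Every library of these 3 sites lay below every control. The log2 changes were -0.50 ± 0.11 at ORNY (adjusted p = 0.00791), -0.41 ± 0.11 at MAWI (0.0227) and -0.37 ± 0.10 at CRMI (0.0193). Adjusted p passed 0.05 without ORNY 1 or 3 (up to 0.168), without any 1 MAWI library or CTRL 7 (up to 0.0923), and without CRMI 1, 3 or 4 (up to 0.0739). IHIN, MROH and MIWI also had every library below the controls, with log2 values of -0.34, -0.32 and -0.28 that did not pass the test (adjusted p = 0.206, 0.510 and 1.00). At CROH the libraries had 1286, 1394, 1469 and 1313 CPM, all above the controls, with a log2 value of 0.32 ± 0.10 (adjusted p = 0.0620). LRMN had 1165, 1595, 1400.1 and 1249 CPM, overlapping the controls (0.30 ± 0.10, adjusted p = 0.0513). In all, C3 was below the control mean at 8 sites and above it at 8. At SRMI the library SRMI 3 had 1234 CPM and the others 799, 737 and 844 CPM. Without VROH 2, CRMI 1 and SRMI 3, C3 was called at SRMI (-0.47, adjusted p = 0.0115), CROH (0.32, 0.0184) and LRMN (0.30, 0.0149) as well.

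CFB, factor B of the alternative pathway (chr6:31945650-31952084, plus strand), also differed between the sites (F = 4.17, adjusted p = 0.000291) but was called at no single site. It had 793, 888, 893 and 872 CPM at MAWI, against a lowest of 935, a median of 1021 and a highest of 1251 CPM in controls. All MAWI libraries were below the controls, and the log2 value was -0.28 ± 0.08 (adjusted p = 0.0739). At LRMN it had 1209.7, 1173, 1076 and 1299 CPM, within or just above the control range (0.19 ± 0.08, adjusted p = 0.149). Without VROH 2, CRMI 1 and SRMI 3, CFB was called at MAWI (-0.28, adjusted p = 0.0171) and ORNY (-0.25, 0.0355). The other convertase genes did not differ between the sites by the test. C2, which stands next to CFB on chromosome 6, averaged 1405 ± 644 CPM at its lowest site, GRNY, and 2164 ± 129 CPM at its highest, BRWI (SD, n = 4 each), against 1868 ± 182 CPM in controls (n = 8). C4A averaged 157 ± 39.9 CPM at CRMI and 200.4 ± 23.8 CPM at MAWI, against 189 ± 13.1 CPM in controls. The lowest CRMI value of C4A, 98.1 CPM, was that of CRMI 1. C4B, the near-identical copy of C4A, was at 0 in every library, so how reads of the copies were shared is uncertain.

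**Figure D3:**
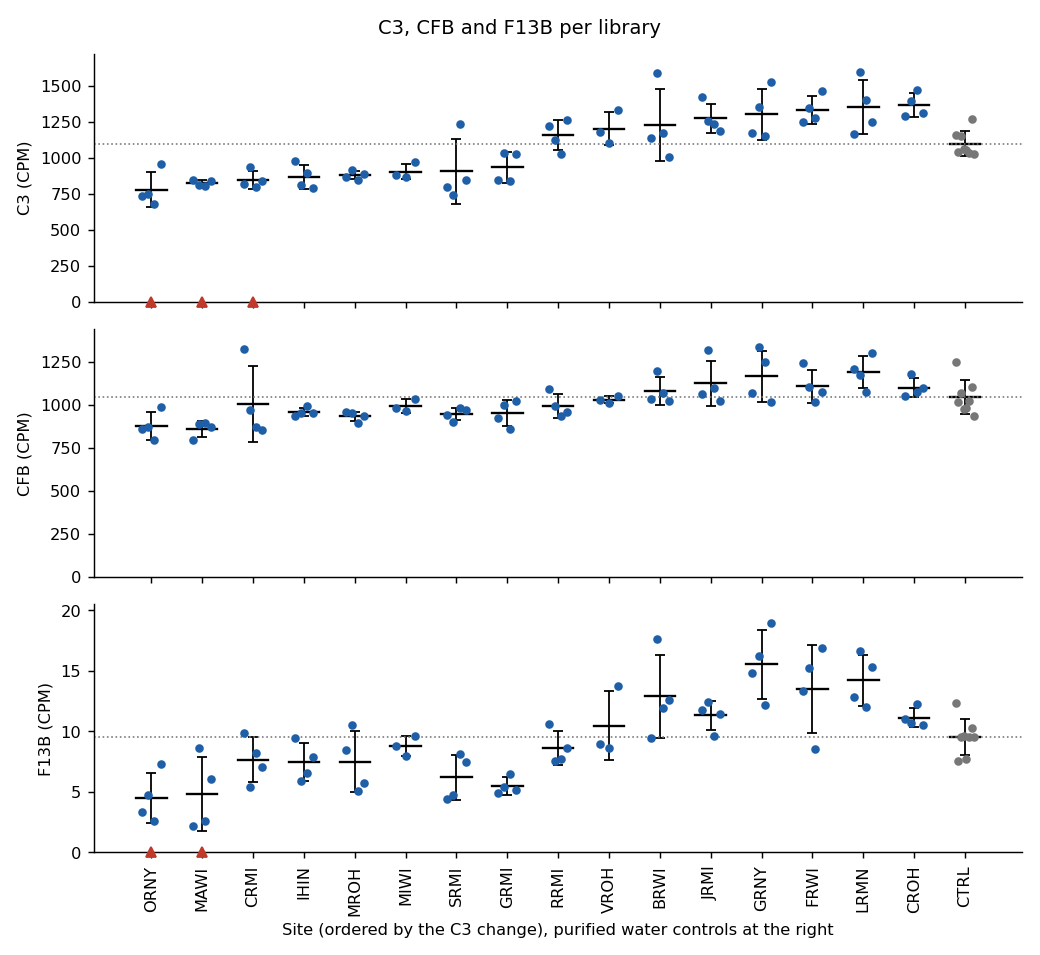
CPM of C3, CFB and F13B (vertical, linear from 0) in each library, by site in the order of the C3 change with the 8 controls at the right; points are libraries, black bars the mean and SD, the dotted line the control mean, and red triangles mark sites where the gene was called. C3 runs from a mean of 777 CPM at ORNY to 1366 CPM at CROH around a control mean of 1097 CPM, and F13B lies low and high at much the same sites.

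F13B encodes the carrier subunit of factor XIII, the enzyme that cross-links fibrin (chr1:197038741-197067267, minus strand). It had the next largest F value (8.62, adjusted p = 2.55e-08). At ORNY the libraries had 3.36, 4.73, 2.56 and 7.32 CPM, against a lowest of 7.55, a median of 9.54 and a highest of 12.3 CPM in controls. All were below the controls, with a log2 change of -1.12 ± 0.24 (adjusted p = 0.00791). At MAWI F13B had 2.15, 8.59, 2.60 and 6.03 CPM, with 1 library inside the control range, and a log2 change of -0.92 ± 0.24 (adjusted p = 0.0254). Adjusted p passed 0.05 at ORNY without ORNY 1 or 3 (up to 0.175) and at MAWI without MAWI 1, MAWI 3 or CTRL 1 (up to 0.245). GRMI had 4.91, 5.36, 6.51 and 5.13 CPM, all below the controls, without passing the test (-0.79 ± 0.25, adjusted p = 0.212). At the other extreme GRNY had 14.8, 16.2, 12.2 and 19.0 CPM, with 3 libraries above every control (0.70 ± 0.21, adjusted p = 0.0986), and LRMN averaged 14.2 ± 2.12 CPM (0.58 ± 0.21, adjusted p = 0.0770). Both were called without VROH 2, CRMI 1 and SRMI 3 (0.70, adjusted p = 0.0226 and 0.58, adjusted p = 0.0407).

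The genes of the fibrinogen chains, which stand side by side on chromosome 4, fell at single sites, FGG at RRMI and SRMI, FGB at RRMI and FGA at CROH. FGG, the gamma chain (chr4:154604134-154612967, minus strand), had 1033, 1082, 1063 and 986 CPM at RRMI, against a lowest of 1417, a median of 1570.1 and a highest of 1741 CPM in controls. All 4 were below the controls and close together, and the log2 change was -0.59 ± 0.13 (adjusted p = 0.00422). This call held without any single library of RRMI or CTRL. At SRMI FGG had 1451, 1259.5, 769 and 1103 CPM, with the first inside the control range, and a log2 change of -0.45 ± 0.13 (adjusted p = 0.0397). The lowest of these values was that of SRMI 3, and without VROH 2, CRMI 1 and SRMI 3 the value was -0.30 (adjusted p = 0.221). Leaving out SRMI 4 or CTRL 1, 3, 6 or 7 alone also ended this call (adjusted p up to 0.0630), and SRMI 3 alone gave 0.356.

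FGB, the beta chain (chr4:154562956-154571086, plus strand), had 234, 283, 275 and 324 CPM at RRMI, against a lowest of 308, a median of 363 and a highest of 398 CPM in controls. Of these, 3 were below the controls (-0.35 ± 0.10, adjusted p = 0.0465), and without RRMI 1 the adjusted p was 0.340. Leaving out RRMI 2 or 3 or CTRL 2, 3, 4, 6, 7 or 8 also ended the call (up to 0.148). At LRMN FGB had 409.7, 467, 457 and 403 CPM and at BRWI 454, 409, 449 and 407 CPM, all above the controls. Neither passed the test, with log2 values of 0.29 ± 0.10 at LRMN (adjusted p = 0.0501) and 0.27 ± 0.10 at BRWI (0.276). Between the sites both chains differed, with F values of 5.46 for FGB (adjusted p = 1.38e-05) and 4.68 for FGG (8.57e-05).

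FGA, the alpha chain (chr4:154583126-154590766, minus strand), had 1114, 1019, 538 and 1001 CPM at CROH, against a lowest of 1321, a median of 1505 and a highest of 1736 CPM in controls. All 4 were below the controls, with a log2 change of -0.71 ± 0.22 (adjusted p = 0.0478) that had an adjusted p of 0.296 without CROH 3. Leaving out CROH 2 or 4 or any 1 control but CTRL 7 also ended the call (up to 0.0928). RRMI had 698, 1061, 1031 and 964 CPM, also all below the controls, but did not pass the test (-0.68 ± 0.22, adjusted p = 0.118). Single libraries of FGA were far apart at some sites: GRNY ranged over 1292, 2133, 1833 and 816 CPM and VROH over 1287, 1535 and 523 CPM. FGA missed the threshold between the sites (F = 2.12, adjusted p = 0.0562).

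**Figure D4:**
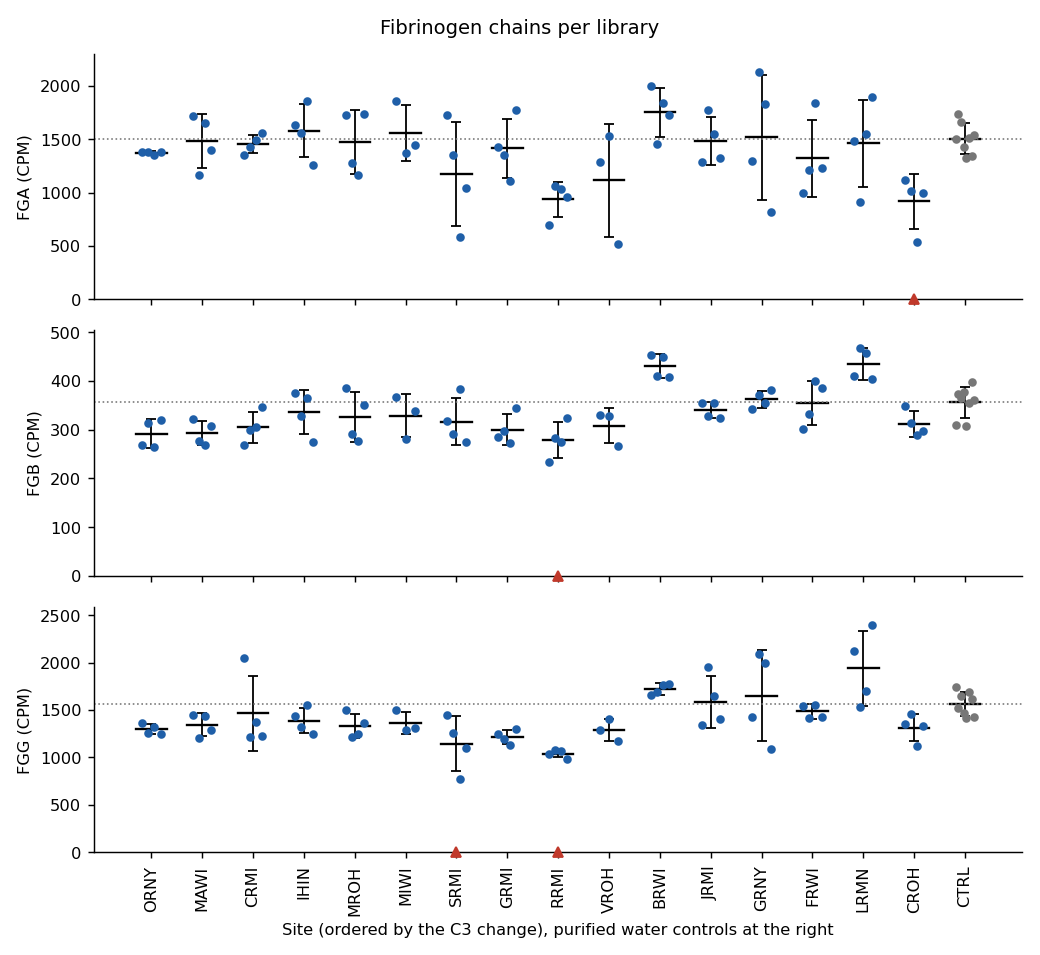
CPM of the fibrinogen chains FGA, FGB and FGG (vertical, linear from 0) in each library, by site in the order of the C3 change with the controls at the right; points are libraries, black bars the mean and SD, the dotted line the control mean, and red triangles mark sites where the chain was called. All chains are low at RRMI, FGB and FGG are high at LRMN and BRWI, and FGA scatters more within sites.

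In the terminal pathway C7 rose. C7 joins the C5b-6 complex and lets it bind the membrane (chr5:40909252-40982939, plus strand). At RRMI it had 2.83, 4.04, 2.08 and 3.13 CPM, against a lowest of 0.676, a median of 0.893 and a highest of 2.23 CPM in controls. CROH had 1.98, 2.81, 3.27 and 2.27 CPM and LRMN 1.98, 2.86, 3.30 and 2.10 CPM. Each site thus had 1 or more libraries inside the control range, set by the single control library at 2.23 CPM. The log2 changes were 1.36 ± 0.29 at RRMI (adjusted p = 0.00316), 1.16 ± 0.31 at CROH (0.0193) and 1.11 ± 0.31 at LRMN (0.0168). Adjusted p was 0.0576 without RRMI 2, up to 0.137 without CROH 2 or 3, and up to 0.0803 without LRMN 2 or 3. C7 was close to the level rule, and these are few counts: 16 to 32 per library at RRMI and 6 to 19 per control. It was above the control mean at 14 of the 16 sites, and below it at ORNY and MAWI, and it differed between the sites (F = 2.60, adjusted p = 0.0166).

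The other terminal genes were called at no site. With C7, 3.75% of the pairs of the 5 terminal genes were called, against 1.93% of those of all features. C8A, the alpha chain of C8, averaged 13.7 ± 2.61 CPM at BRWI and 22.3 ± 2.92 CPM at IHIN (SD, n = 4 each), against 19.0 ± 2.08 CPM in controls (n = 8), and differed between the sites (F = 2.69, adjusted p = 0.0129). Its partner C8B was below the control mean at 15 of 16 sites, by at most 0.30 on the log2 scale, at GRNY, and did not differ between the sites by the test (adjusted p = 0.609). C5 averaged 52.9 ± 12.3 CPM at CROH and 92.8 ± 16.8 CPM at IHIN, against 81.1 ± 16.5 CPM in controls. C6 lay just inside the level rule at 1.15 CPM over controls, before scaling, and had log2 values between -1.30 at SRMI and 0.56 at RRMI.

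Among the contact factors KNG1 fell. KNG1 encodes kininogen, the cofactor of contact activation and the source of bradykinin (chr3:186717276-186744410, plus strand). It had 2.87, 3.71, 1.97 and 2.62 CPM at SRMI and 3.22, 3.40, 2.80 and 2.52 CPM at MAWI, against a lowest of 4.06, a median of 5.23 and a highest of 5.96 CPM in controls. All 8 libraries were below every control. The log2 changes were -0.84 ± 0.20 at SRMI (adjusted p = 0.0115) and -0.79 ± 0.21 at MAWI (0.0276), and the value at SRMI was -0.72 (adjusted p = 0.0771) without VROH 2, CRMI 1 and SRMI 3. Without SRMI 3 alone it had an adjusted p of 0.118, and the change at MAWI had one of up to 0.118 without MAWI 1, 3 or 4. KNG1 differed between the sites (F = 3.39, adjusted p = 0.00216). F11 and F12, the proteases that start the intrinsic pathway, were called at no site and did not differ between sites by the test. F11 averaged 158 ± 13.1 CPM at MAWI and 208 ± 55.0 CPM at CRMI, against 180.5 ± 23.1 CPM in controls, and F12 averaged 27.8 ± 12.6 CPM at CRMI and 40.9 ± 11.9 CPM at SRMI, against 31.6 ± 4.80 CPM in controls.

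F3, tissue factor, which starts clotting outside the vessel (chr1:94529225-94541800, minus strand), differed between the sites (F = 3.04, adjusted p = 0.00534) and was called at none. It had 3.25, 3.34, 1.36 and 3.93 CPM at CROH and 4.93, 6.55, 8.25 and 7.97 CPM at IHIN, against a lowest of 3.39, a median of 5.31 and a highest of 5.97 CPM in controls. CROH had 3 libraries below the controls and IHIN 3 above them. The log2 values were -0.82 ± 0.30 at CROH (adjusted p = 0.103) and 0.43 ± 0.27 at IHIN (0.552). Without VROH 2, CRMI 1 and SRMI 3, F3 was called at CROH (-0.82, adjusted p = 0.0292). F5, the cofactor of the enzyme that makes thrombin, averaged 6.01 ± 3.51 CPM at CRMI and 13.7 ± 1.37 CPM at RRMI, against 9.46 ± 1.62 CPM in controls, and differed between the sites (F = 2.65, adjusted p = 0.0146). The lowest CRMI value of F5, 1.46 CPM, was that of CRMI 1, the library that stood apart.

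C4BPB encodes the beta chain of C4b-binding protein, which dismantles the classical convertase and also binds protein S (chr1:207088842-207099993, plus strand). It had 607, 540.0, 348 and 517 CPM at CROH and 781, 759.8, 645 and 1106 CPM at GRMI, against a lowest of 595, a median of 697 and a highest of 841 CPM in controls. At CROH 3 libraries were below the controls and at GRMI 1 was above them. It differed between the sites (F = 2.84, adjusted p = 0.00881) but passed at no single site, with log2 values of -0.45 ± 0.17 at CROH (adjusted p = 0.122) and 0.26 ± 0.17 at GRMI (0.653). C4BPA, its neighbour and the alpha chain, averaged 25.3 ± 4.76 CPM at CROH and 35.8 ± 4.38 CPM at GRMI, against 28.6 ± 4.91 CPM in controls. CFI, the protease that inactivates C3b and C4b, averaged 562 ± 65.6 CPM at GRMI and 711 ± 150.3 CPM at GRNY, against 660.0 ± 85.5 CPM in controls. Neither differed between the sites by the test. Without VROH 2, CRMI 1 and SRMI 3, the F test called C4BPA (adjusted p = 0.00211) and not CFI (0.281).

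**Figure D5:**
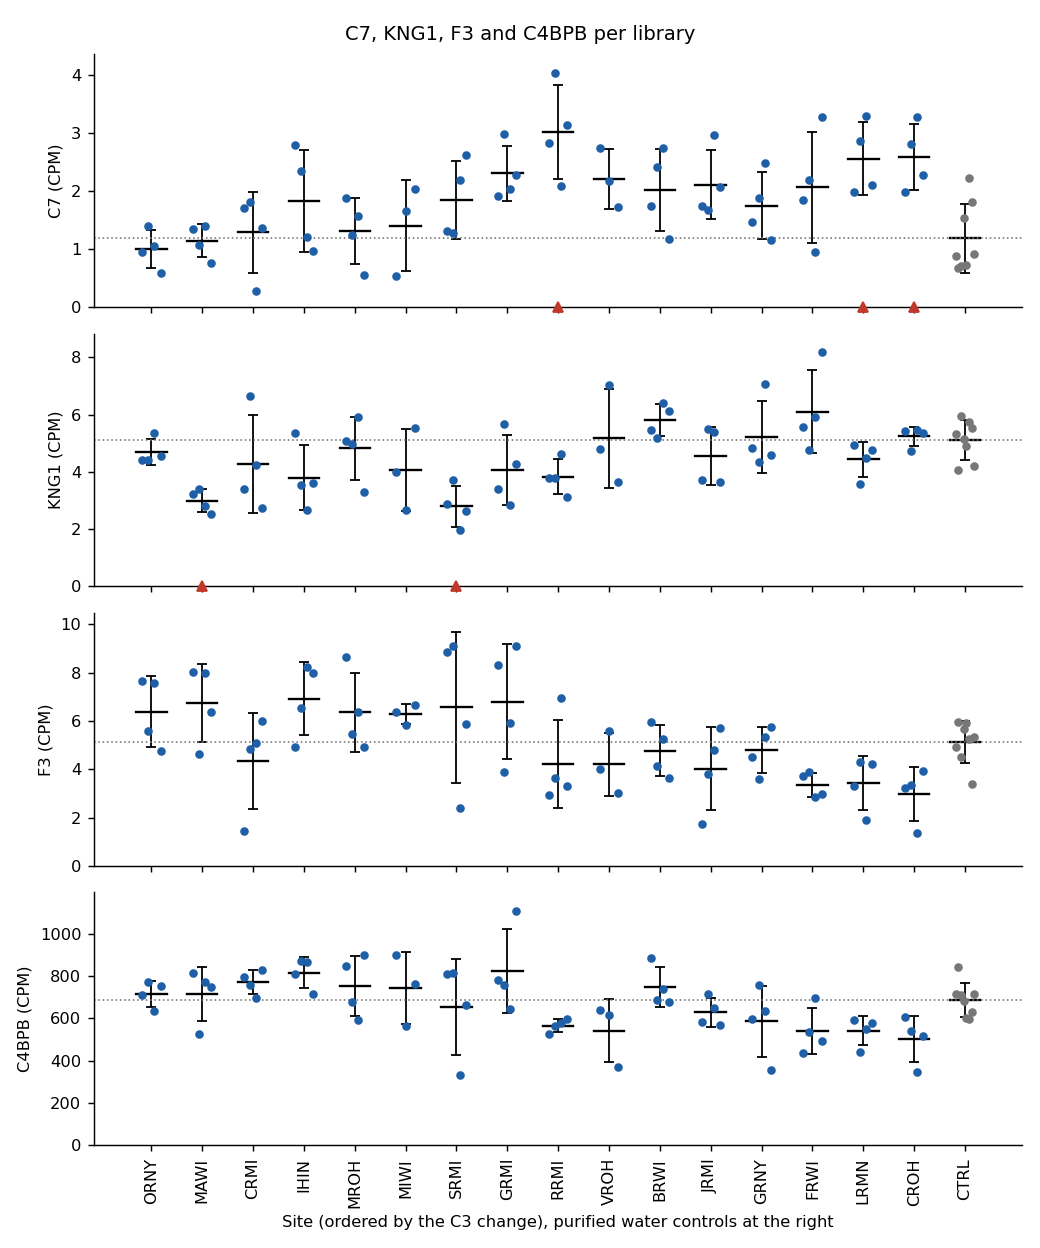
CPM of C7, KNG1, F3 and C4BPB (vertical, linear from 0) in each library, by site in the order of the C3 change with the controls at the right; points are libraries, black bars the mean and SD, the dotted line the control mean, and red triangles mark sites where the gene was called. C7 is highest at RRMI (mean 3.02 CPM), KNG1 is lowest at SRMI and MAWI, and F3 and C4BPB are lowest at CROH.

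The 5 genes that start the classical and lectin pathways were called at no site (80 pairs), where 1.93% of the pairs of all features were called. Between the sites 2 of the 5 differed, where 37.8% of all features did. MASP2, the lectin pathway protease, averaged 3.15 ± 0.390 CPM at JRMI and 9.11 ± 3.87 CPM at ORNY (SD, n = 4 each), against 5.63 ± 1.70 CPM in controls (n = 8), and differed between the sites (F = 2.62, adjusted p = 0.0155). C1S, a protease of C1, averaged 78.8 ± 3.47 CPM at RRMI and 114 CPM at SRMI (lowest library 95.8, highest 134), against 102 ± 10.2 CPM in controls (F = 2.22, adjusted p = 0.0432), a call lost on leaving out any 1 of 47 libraries. C1R, MASP1 and MBL2 did not differ between the sites by the test. MBL2, the lectin itself, spanned 4.15 ± 4.48 CPM at GRNY to 12.6 ± 3.56 CPM at BRWI, against 7.44 ± 2.44 CPM in controls.

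Of the 5 anticoagulant and fibrinolytic genes, none was called at a site (80 pairs) and PLG alone differed between the sites. Over all features 1.93% of pairs and 37.8% of features were called, so few calls were due in so small a group. PLG, the precursor of plasmin, averaged 10.3 ± 1.21 CPM at MAWI and 22.8 ± 2.74 CPM at BRWI, against 15.4 ± 2.57 CPM in controls (F = 2.46, adjusted p = 0.0233). Without BRWI 3 the F value of PLG was 2.17 and just missed the threshold. PROC, protein C, averaged 1569.8 ± 84.7 CPM at MROH and 2135 ± 299.7 CPM at LRMN, against 1769.6 ± 163 CPM in controls. Without VROH 2, CRMI 1 and SRMI 3, the F test between the sites also called PROC (adjusted p = 0.00283) and PROZ (0.0445). PROS1, protein S, averaged 25.5 ± 15.6 CPM at GRNY and 51.1 ± 8.57 CPM at MIWI (n = 3), against 42.7 ± 7.65 CPM in controls. PROZ and CPB2, protein Z and the carboxypeptidase that slows fibrinolysis, had log2 values of -0.72 at RRMI to 0.39 at MIWI and of -0.30 at SRMI to 0.30 at BRWI.

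Some of these genes took much the same order over the sites. Over the 16 site means of log2 CPM, F13B and CFB had a Pearson r of 0.963 and a Spearman rho of 0.968, and r was 0.940 without MAWI and ORNY, the sites farthest in F13B. C3 had r = 0.913 with CFB (rho = 0.903) and 0.891 with F13B (rho = 0.862). FGB and FGG had r = 0.877 (rho = 0.824), which was 0.766 without LRMN and BRWI, and FGA had r = 0.480 with FGB and 0.604 with FGG. Without CROH and RRMI, the sites farthest in FGA, these were 0.379 and 0.512. F3 was most like C4BPA (r = 0.855), and C4BPB most like F3 (0.770). C7 was most like C3 (0.760) and KNG1 most like F13B (0.659). These r values describe 16 sites, and the genes of a site share its libraries, depth and scaling. With the median depth of a site, the log2 value of C3 had r = 0.139, that of F13B 0.02 and that of C4BPB -0.472, so C4BPB tended to be lower at the more deeply read sites, and the part of depth was not tested.

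Genes of the same systems outside the 31 were followed from fixed lists. Of 28 further complement genes 11 were tested, 5 differed between the sites, and the 176 pairs with a site held 1 higher and 3 lower calls. These shares, 45.5% and 2.27%, stand beside 37.8% and 1.93% of all features. C1RL, a protease akin to C1R, fell to 7.19 ± 0.401 CPM at FRWI, against 15.4 ± 1.35 CPM in controls (log2 -1.09 ± 0.18, adjusted p = 0.000272), and also at LRMN (-0.61) and CROH (-0.57). COLEC11, a collectin of the lectin pathway, rose at CRMI (log2 1.09 ± 0.33, adjusted p = 0.0283). Of 22 further coagulation and fibrinolysis genes 10 were tested, 7 differed between the sites, and 160 pairs held 3 higher and 8 lower calls. The calls made 6.88% of pairs, against 1.93% of those of all features, of which 37.8% differed between the sites. They came from 4 genes, and ANXA2 alone made 6 of them. ANXA2, part of a plasminogen receptor at the cell surface, fell at 6 sites, most at RRMI with 954 ± 71.8 CPM, against 1405 ± 97.4 CPM in controls (log2 -0.56 ± 0.09, adjusted p = 1.15e-05). PLGRKT, another plasminogen receptor, fell at LRMN (log2 -1.49 ± 0.44, adjusted p = 0.0222) and CROH (-1.44 ± 0.44, 0.0431). PROCR, the protein C receptor, rose at MAWI (0.50 ± 0.13, adjusted p = 0.0307) and CRMI (0.44 ± 0.13, 0.0338), and LRP1, a clearance receptor, rose at CROH (0.49 ± 0.14, 0.0351).

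Transcription factors of hepatocytes and the IL-6 receptor chain were listed too, 17 genes with 16 tested, of which 9 differed between the sites, with 7 higher and 2 lower calls in 256 pairs. Of all features 37.8% differed between the sites and 1.93% of pairs were called, against 56.2% and 3.52% in this list. CEBPA, a C/EBP factor of hepatocytes, fell to 21.0 ± 2.55 CPM at LRMN and rose to 52.3 ± 15.9 CPM at SRMI, against 32.0 ± 2.93 CPM in controls (log2 -0.61 and 0.70, adjusted p = 0.0170 and 0.00635). FOXA1 rose at LRMN (0.48 ± 0.14, adjusted p = 0.0268), as did ONECUT1 (0.48 ± 0.12, 0.00587). NR1H4, the bile acid receptor, fell at LRMN (-0.52 ± 0.11, 0.00152) and rose at CRMI (0.34 ± 0.11, 0.0403).

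The remaining 12 of the 43 genes did not reach 1 CPM over controls. C4B, CFHR3, F2 (prothrombin), F9 and F10 were at 0 in every library, where a count of 0 allows up to 3 counts. C9 had 5 counts over all 71 libraries and 0 in controls. CFHR2 came nearest to the rule with 0.269 CPM over controls, and C8G followed with 0.0748 CPM, while C6 at 1.15 and C7 at 1.20 CPM were just inside it. CFHR4, CFHR5, F7 and KLKB1 had 1 to 4 counts each over the 8 controls. The sources used here do not give probe positions, so a value at or near 0 is that of the probes used.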

How the data were processed

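The authors deposited a single table with 71 library columns, labelled as normalized, whose values were treated here like expected counts, that is reads estimated per gene. The submitters' processing notes name Salmon and the build GRCh38. For the Salmon version, any normalization and the probe positions: not given in the sources used here. A median of 93.5% of values under 20 (lowest library 91.6%) lay within 0.02 of a whole multiple of 1 read, and column totals differed, so the values were rounded and used as counts; whether a scaling preceded deposit is not given. The table is held in part and ends before RAI14; later symbols were not analysed here, and totals, depth and CPM cover the part held. MIWI and GRMI libraries are numbered as in the table.

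Counts were scaled by TMM, filtered (filterByExpr, minimum count 10) and fitted in edgeR 4.0.16 (R 4.3.3) with 17 group means over the 70 libraries above 1e+05 counts (53 residual degrees of freedom, biological coefficient of variation 0.249). Contrasts were each site minus controls, the mean of sites minus controls, and an F test between the 16 sites. The members, lists, rules and the depth limit were chosen with earlier results of these data known. Described with values per library were the 8 members with the smallest p between sites, those called at the mean of sites and the 2 called at most sites; FGA was added after its values were seen, to complete the fibrinogen chains. Other lists name at most 4 called genes each. The procedure was tested on simulated counts. Alternatives were DESeq2 1.42.0, RLE size factors, no filter, all 71 libraries, leaving out libraries, the replicate number as a block, and each site fitted with controls alone. Motifs were searched in RefSeq promoters of GRCh38.p14, and GENCODE 29 (GRCh38) gave the gene positions. Counting intervals cover counting error only, as the reads carry no molecular identifiers.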

Additional observations from a re-analysis of the deposited data

Results flagged for a closer look

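Between the sites, 14 genes differed by the test of the difference itself (edgeR F test, adjusted over all features): C3 with an F value of 12.4, F13B with 8.62, FGB with 5.46, FGG with 4.68, CFB with 4.17, KNG1 with 3.39, F3 with 3.04, C4BPB with 2.84, C8A with 2.69, F5 with 2.65, MASP2 with 2.62, C7 with 2.60, PLG with 2.46 and C1S with 2.22. Their share of the 31 genes was 45.2%, against 37.8% of all features.

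A single library lay far from the rest of its group in 2 of 135 groups of the genes described in full; chance flags about 1 in 20 groups. KNG1 was at 4.74 CPM in CROH 2, with 5.37 to 5.45 CPM in the other CROH libraries, and at 5.36 CPM in ORNY 3, with 4.41 to 4.55 CPM in the others.

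VROH 2, which entered only the alternative with all 71 libraries, had 4 counts of C6 among its 8840, or 449 CPM (95% exact Poisson interval 123 to 1159), against at most 1.49 CPM in a control. Its other counts of the listed genes numbered 0 to 2 per gene.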

How the results depend on the processing

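No called change reversed its sign. DESeq2 kept the call of all 14 changes, RLE size factors of 12, leaving out VROH 2, CRMI 1 and SRMI 3 of 12, each site fitted with the controls alone of 11, no filter on low counts of 10, and all 71 libraries of 5. At the mean of sites 0 genes were called under each alternative that gave this comparison; fitting each site with the controls alone does not give it.

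With all 71 libraries 9 genes differed between sites and 5 pairs of gene and site were called (of all features 29.8%, of all their pairs 0.883%), with 0 genes at CRMI and MAWI and 1 each at CROH, ORNY, RRMI and SRMI. All features called were 260 at CRMI, 25 at MAWI, 149 at CROH, 14 at ORNY, 59 at RRMI and 79 at SRMI. With each site and the controls alone 28 pairs were called (3.86% of all pairs), with 6 genes at CROH, 2 at GRMI, 1 at GRNY, 1 at IHIN, 5 at LRMN, 7 at RRMI and 0 at SRMI. All features called were 997 at CROH, 1068 at LRMN and 311 at RRMI. At GRMI they numbered 57, at GRNY 110, at IHIN 326 and at SRMI 2. DESeq2 called 21 pairs (2.63% of all pairs), with 2 genes at CRMI, 3 at CROH, 1 at GRNY and 4 at LRMN. Of all features it called 655 at CRMI, 389 at CROH, 88 at GRNY and 725 at LRMN. RLE size factors gave 1 gene at CROH (2.00% of all pairs), and no filter gave 1 each at CROH and SRMI (0.653% of all pairs). All features called were 300 at CROH with RLE, and 190 at CROH and 104 at SRMI with no filter. Without VROH 2, CRMI 1 and SRMI 3 there were 27 pairs (4.09% of all pairs), with 2 genes at CRMI, 6 at CROH, 2 at GRNY, 6 at LRMN, 3 at ORNY and 1 at SRMI, and 20 genes between sites (49.8% of all features). All features called were 554 at CRMI, 709 at CROH, 634 at GRNY, 1213 at LRMN, 283 at ORNY and 88 at SRMI. Shares in brackets are those of all features, which moved too.

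Leaving out single libraries, the pairs called numbered 9 (without MAWI 3) to 20 and the genes between sites 13 to 20, while 1.59% to 2.85% of all pairs and 35.8% to 45.8% of all features were called. For each site named here, calls were followed only in the 12 fits that left out 1 library of that site or of the controls. In them the genes called ranged over 0 to 2 at CRMI, 0 to 3 at CROH, 0 to 3 at LRMN, 0 to 3 at MAWI, 0 to 3 at ORNY, 1 to 3 at RRMI and 1 to 3 at SRMI. FGG at RRMI alone kept its call in all 12 of its fits (largest adjusted p 0.0449). The libraries named above as ending the call of a gene at a site come from these fits. Leaving out libraries of other sites can end calls too, as 12 pairs were called without BRWI 3. With all 71 libraries FGG at RRMI did not pass the test (adjusted p = 0.432), and the gene called at RRMI was C7 (0.00412).

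With the replicate number as a block 8 pairs were called (0.884% of all pairs), 0 genes at CRMI, 1 at CROH, 1 at MAWI and 1 at SRMI. All features called were 184 at CRMI, 120 at CROH, 84 at MAWI and 142 at SRMI. In that fit 14 genes differed between sites (35% of all features). Over 512 pairs of libraries with the same number the median correlation of deviations was 0.022, against 0.006 for other numbers. Among the same-number pairs the lowest was -0.83 and 198 were over 0.1, and 4 of 70 libraries were most like those of their own number. Numbers at MIWI and GRMI are those of the deposited table. Whether dishes of equal number share a batch was not tested.

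The cause of these shifts was not tested. C7 and C6 rest on few counts. KNG1 had 9 to 35 counts per library at SRMI and 12 to 23 at MAWI, and F13B had 8 to 55 at MAWI. Of the 62 site libraries fitted, 11 were deeper than the shallowest control and the others shallower than all controls. The libraries come from the same pooled cells. The scaling alternative left the direction of every called change as it was.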
